A study of Mus musculus with 6 samples.

Results

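Transcripts of 10 epithelial genes of gastric metaplasia were examined in cells sorted from the mouse stomach corpus for the macrophage surface protein F4/80. The genes were chosen by name and matched by symbol, and all 10 were found, 1 row each, among the 23049 genes of the deposited table. A first set of 5 marks spasmolytic polypeptide-expressing metaplasia (SPEM): Wfdc2, Cd44, Clu, Sox9 and Aqp5. The other 5, Olfm4, Cftr, Dmbt1, Vil1 and Tff3, belong to intestinal-type epithelium. The mice had been treated with DMP-777, to induce SPEM, or with L635, to induce SPEM with intestinal features, and each treatment had 3 libraries of sorted cells. The sources used here do not give the strain, sex, age, dose or treatment time of the mice, nor the number of animals behind a library, and no untreated mice were analysed here. The p-values therefore measure the spread between these libraries, which may be partly technical, and metaplasia type and other differences between the compounds cannot be told apart.

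SPEM arises in the acid-secreting corpus of the stomach when parietal cells are lost. Glands then fill with mucus-secreting cells that express trefoil factor 2 together with markers that the healthy base of the gland lacks or expresses weakly. In chronically inflamed stomach, such glands can further acquire transcripts of intestinal goblet cells and enterocytes, a state known as intestinalized SPEM. DMP-777 and L635 both cause the loss of parietal cells, and L635 is an analog that lacks the inhibition of neutrophil elastase by DMP-777. Comparing the treatments asks whether the sorted cells of the corpus with intestinalized SPEM carried more SPEM or intestinal-type transcripts than those of the corpus with SPEM alone. All 10 are genes of epithelium rather than defining genes of macrophages, although Cd44 is also a leukocyte adhesion receptor and Olfm4 also a granule protein of some neutrophils.

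Levels are taken as RPKM, a unit recognised from the values. RPKM are read numbers corrected for the length of the gene and for library depth. Comparisons between genes are approximate, because the RNA was amplified and the part of this step in the levels was not tested. The lowest value was 1 in every library, and a listed 1 is a floor, meaning a level of 1 or less. Summed over all genes, the listed values came to 255443 to 295675 in DMP-777 and 204413 to 243227 in L635, without overlap. Weighted by exonic length, the sums of genes above the floor overlapped, at 903940 to 973030 and 858656 to 920701. The part of gene length in the fold changes was not tested. Shares over all genes given below are not matched for length. Library depth, as estimated from the spacing of low values, ranged from 5700000 to 10500000 reads in DMP-777 and 4300000 to 20900000 in L635, with L635 replicate 2 the shallowest and L635 replicate 3 the deepest. The gate held macrophage RNA: all 15 macrophage markers lay above the floor in every library, and Emr1, the gene of F4/80, had RPKM values of 46.1, 88.5 and 94.3 with DMP-777 and 97.9, 127 and 41.3 with L635. Here and in what follows, 3 values in a row stand for replicates 1, 2 and 3. The gate also held epithelial RNA, with the adhesion molecule gene Epcam at 31.1 to 57.0 RPKM, Krt8 at 134 to 234 and Cdh1 at 90.8 to 165 over the 6 libraries. The summed level of 15 general epithelial markers was 935 to 1374 RPKM in DMP-777 and 759 to 1025 in L635, with 12 to 14 of the 15 above the floor and Cldn4 at the floor in all 6 libraries. The sum of 10 surface mucous cell markers was 5294 to 13480 RPKM in DMP-777 and 3418 to 4049 in L635, and that of 11 parietal cell markers 589 to 1589 and 273 to 999. The part of this epithelial RNA in the results was not tested beyond the covariate and the scaling given with them. In these sorted bulk samples, fewer epithelial cells and less RNA per epithelial cell cannot be told apart. L635 replicate 3 stood apart in having 1 of 9 mast cell markers, 0 of 10 T cell markers and 2 of 10 fibroblast markers above the floor, against up to 9, 5 and 9 in L635 replicate 1, and values without it are given for Wfdc2, Sox9, Aqp5, Olfm4, Cftr and the SPEM median.

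**Figure D1:**
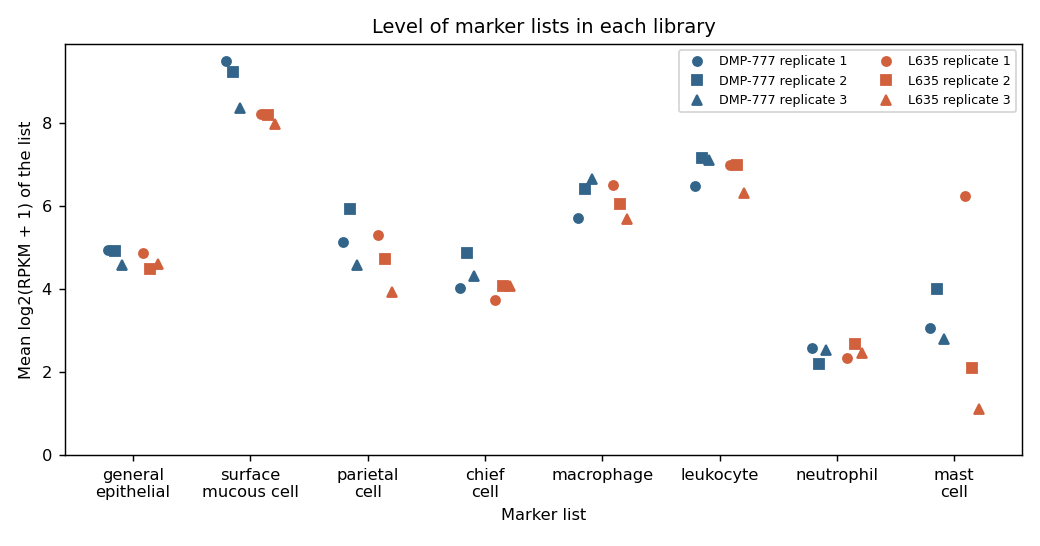
Mean log2(RPKM + 1) of 8 cell type marker lists (y axis) in each of the 6 libraries, with DMP-777 in blue, L635 in orange and a symbol for each replicate. The surface mucous level of all 3 DMP-777 libraries lies above that of all 3 L635 libraries (8.35 to 9.48 against 7.97 to 8.21), while the general epithelial, macrophage, leukocyte and neutrophil levels overlap and the mast cell level is highest in L635 replicate 1, at 6.25.

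The 10 genes covered a wide range of levels. Averaged over the 6 libraries, the order was Clu at 123 RPKM, Dmbt1 at 86.7, Cd44 at 39.4, Sox9 at 13.9, Wfdc2 at 9.76, Vil1 at 8.73, Olfm4 at 5.09, Aqp5 at 2.47, Tff3 at 2.46 and Cftr at 1.87. Cd44 lay above Sox9 in 6 of 6 libraries with ranges that did not overlap, which was true of no other neighbours in this order. Dmbt1 lay above Cd44 in 5 of 6 libraries and Clu above Dmbt1 in 4. Of the 10 genes, 5 were above the floor in every library (Clu, Dmbt1, Cd44, Sox9 and Vil1), and the other 5 were at the floor in at least 1. The steadiest were Clu and Cd44, whose highest library was 1.56 and 1.61 times the lowest, against 3.29 for Dmbt1 and 6.74 for Vil1.

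**Figure D2:**
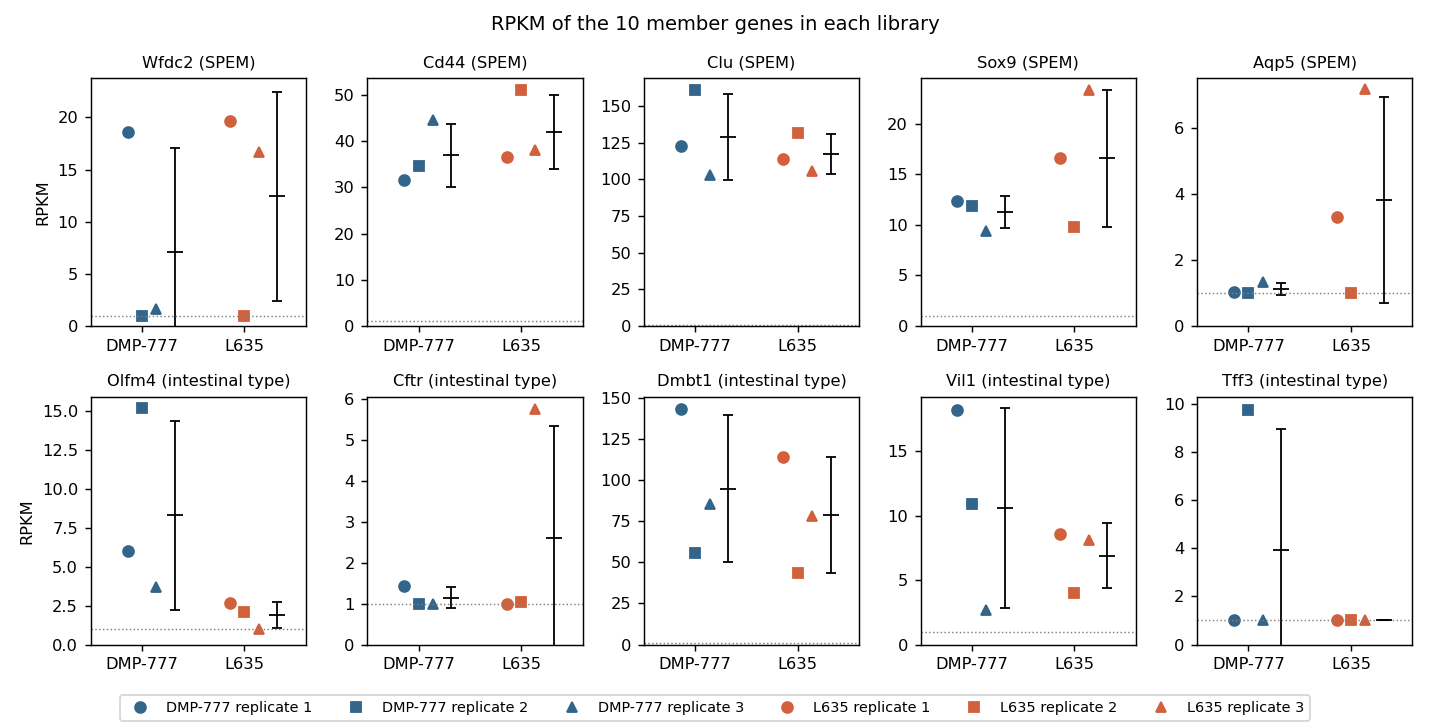
RPKM (y axis, a scale for each gene) of the 10 genes in the 3 DMP-777 libraries (blue) and the 3 L635 libraries (orange), with the mean and SD of each group in black, cut off at 0, and the floor of 1 as a dotted line. Only Olfm4 has groups that do not overlap, with 3.71 to 15.2 RPKM in DMP-777 and 1 to 2.64 in L635. Over all genes tested, 16.0% have groups that do not overlap, in either direction.

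None of the 9 genes that could be tested passed the test between the treatments. Olfm4 was the nearest on the lower side of L635 and Aqp5 on the higher side. Levels were compared on log2(RPKM + 1) with limma over 12102 genes that were above the floor in at least 3 of the 6 libraries. This kept 9 of the 10 genes and left out Tff3. At a Benjamini-Hochberg adjusted p of 0.05 from limma, 0 of the 9 were called, as were 0% of all genes tested, where the lowest adjusted p was 0.308. An unadjusted limma p below 0.05 was reached by 1 of 9, Olfm4, where the share over all genes tested was 10.1%. Before adjustment, the 95% interval of the median gene reached 0.93 on the log2 scale to either side of its fold change. On the log2(RPKM + 1) scale the fold changes of genes near the floor are understated.

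Of the SPEM genes, 4 of 5 had a higher and 1 a lower fitted level in L635. Their median log2 fold change was 0.46, against 0.00 over all genes tested, of which 50.2% were above 0 and 49.8% below. Of the intestinal-type genes tested, 1 of 4 was higher and 3 were lower, with a median of -0.29. Neither median has a test, and that of the intestinal-type genes turned to 0.14 without DMP-777 replicate 1 and to 0.042 without L635 replicate 2. With 1 library left out, the SPEM median was between 0.23, without L635 replicate 3, and 0.77, without L635 replicate 2, and it was 0.18 over the 3 SPEM genes above the floor in all 6 libraries.

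**Figure D3:**
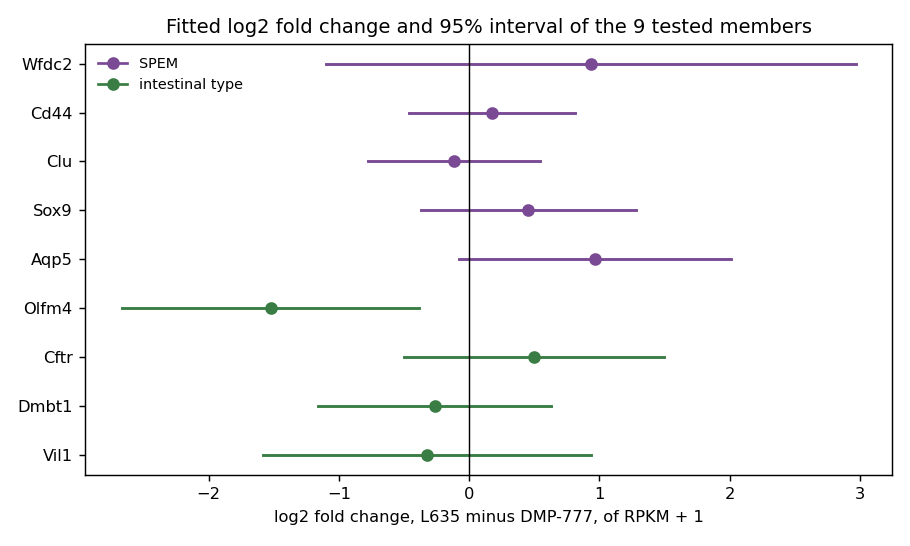
Fitted log2 fold change of RPKM + 1 in L635 relative to DMP-777 (x axis) for the 9 tested genes, with points for the estimates and lines for the 95% intervals, SPEM genes in purple and intestinal-type genes in green. The interval of Olfm4, from -2.66 to -0.38, is the only one that does not reach 0, before adjustment over all genes.

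Among the SPEM genes, Clu encodes clusterin, a secreted chaperone that is induced in damaged and metaplastic glands (on GRCm38, as all positions here, chromosome 14, 65968483 to 65981548). Its RPKM values were 122, 161 and 103 with DMP-777 and 114.0, 132 and 105 with L635. The L635 values lay inside the range of DMP-777. Group means were 129 ± 29.4 and 117 ± 13.5 RPKM (SD, n = 3 each), and the log2 fold change was -0.12 ± 0.30 (SE) at a limma adjusted p of 0.913, with a 95% interval from -0.78 to 0.54. The sign turned without DMP-777 replicate 2, at 0.054, and after quantile normalization, at 0.43.

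Cd44 encodes the hyaluronan receptor CD44, whose variant form marks SPEM cells and whose standard form is carried by leukocytes (chromosome 2, 102811141 to 102901665). The table holds 1 value for the gene and does not separate these forms. The 3 DMP-777 libraries held 31.7, 34.6 and 44.6 RPKM and the L635 libraries 36.5, 51.1 and 38.1. The highest library was L635 replicate 2, and the groups overlapped. Group means were 36.9 ± 6.78 and 41.9 ± 8.01 RPKM (SD, n = 3 each), and the log2 fold change was 0.18 ± 0.29 (SE) at a limma adjusted p of 0.857, which became -0.015 once the general epithelial level entered the fit as a covariate. The summed level of 9 leukocyte markers was 1075 to 1730 RPKM in DMP-777 and 810 to 1393 in L635. Of the 9, 8 had a lower fitted level in L635 and 1, Ptprc, a higher one. Ptprc had 15.3, 15.2 and 33.5 RPKM with DMP-777 and 42.0, 90.9 and 61.7 with L635 (limma adjusted p = 0.406). All L635 libraries lay above all DMP-777 libraries for Ptprc, as for 7.25% of all genes tested. The part of leukocyte RNA in the level of Cd44 was not tested.

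Sox9 encodes a transcription factor of progenitor cells that is raised in SPEM and in regenerating glands (chromosome 11, 112782224 to 112787760). With DMP-777 it had 12.4, 11.9 and 9.45 RPKM, and with L635 16.7, 9.82 and 23.4. L635 replicates 1 and 3 were above every DMP-777 library, and L635 replicate 2 lay within their range. Group means were 11.2 ± 1.58 and 16.6 ± 6.77 RPKM (SD, n = 3 each), and the log2 fold change was 0.46 ± 0.38 (SE) at a limma adjusted p of 0.700, or 0.18 without L635 replicate 3.

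Relative to the epithelial RNA in each library, Sox9 was steady in DMP-777. Its log2(RPKM + 1) differed from the mean of the general epithelial markers by -1.20, -1.23 and -1.21 in DMP-777 replicates 1, 2 and 3, and the difference was -0.73, -1.06 and 0.01 in L635 replicates 1, 2 and 3. On this scale, all 3 L635 libraries lay above all 3 DMP-777 libraries, as they did for 7.06% of all genes tested. The log2 fold change was 0.62 ± 0.40 (SE) with a limma adjusted p of 0.623. Olfm4 was the other gene whose groups did not overlap on this scale, in the lower direction, as for 6.42% of all genes tested. At an unadjusted limma p below 0.05 there were 2 of the 9 genes, Olfm4 and Aqp5, against 9.56% of all genes tested, and at an adjusted p of 0.05 there were 0. Aqp5 was at the floor in DMP-777 replicate 2 and L635 replicate 2, and these equal values became -3.92 and -3.49 on this scale. Its limma p here thus depends partly on the epithelial markers. Olfm4 was at the floor in L635 replicate 3. This scaling was chosen after seeing the data, and it shifts the median gene by 0.17.

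**Figure D4:**
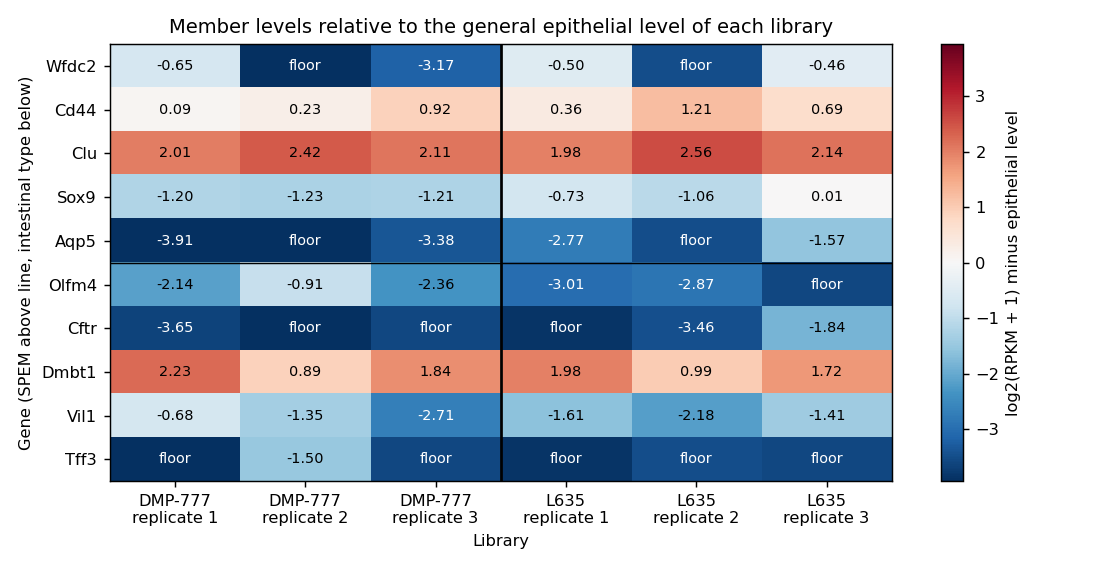
Level of each gene relative to the epithelial RNA of its library, as log2(RPKM + 1) minus the mean log2(RPKM + 1) of 15 general epithelial markers (color scale, values printed in the cells), for the 6 libraries (columns). Cells marked floor hold a listed RPKM of 1. Clu, Dmbt1 and Cd44 lie above the epithelial mean in all 6 libraries. That mean includes Cldn3, Cldn4 and Cldn7, which are at the floor in most libraries. Relative to Epcam alone, Cd44 ran from 55.5% in DMP-777 replicate 1 to 164% in L635 replicate 2. Sox9 is at -1.23 to -1.20 in DMP-777 and at -1.06 to 0.01 in L635.

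Wfdc2 encodes a secreted protein with a pair of whey acidic protein domains, also known as HE4, that is nearly absent from healthy corpus and marks SPEM (chromosome 2, 164562413 to 164568510). Its RPKM values were 18.6, 1 and 1.68 with DMP-777 and 19.7, 1 and 16.6 with L635. The gene was thus either at 16.6 to 19.7 RPKM or at most 1.68, and each treatment held libraries of both kinds. At the estimated depths the higher values correspond to about 147, 196 and 397 reads, and the floor of this gene to about 6.5 reads in DMP-777 replicate 2 and 4.9 in L635 replicate 2. The log2 fold change was 0.93 ± 0.94 (SE, limma adjusted p = 0.754), with the widest interval of the 9 genes, from -1.10 to 2.97. Leaving out DMP-777 replicate 1 gave 1.96 and leaving out L635 replicate 2 gave 2.02. Dropping DMP-777 replicate 2 or 3 gave 0.32 or 0.53, and dropping L635 replicate 1 or 3 gave 0.33 or 0.45.

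Aqp5 encodes a water channel of secretory epithelium, known in the stomach from antral glands and from SPEM (chromosome 15, 99590849 to 99594829). The 3 DMP-777 libraries held 1.04, 1 and 1.32 RPKM and the L635 libraries 3.30, 1 and 7.17. All DMP-777 libraries were at or near the floor, while L635 replicates 1 and 3 were above them and L635 replicate 2 was at the floor. The value of L635 replicate 3 corresponds to about 390 reads and that of L635 replicate 1 to about 75. The log2 fold change was 0.96 ± 0.48 (SE), the largest of the higher genes, with a limma unadjusted p of 0.0666 and an adjusted p of 0.511. Without L635 replicate 3 it was 0.47, and without replicate 2 of that group 1.49, and in neither case did it pass (limma adjusted p = 0.905 and 0.733). Both libraries with Wfdc2 at the floor, DMP-777 replicate 2 and L635 replicate 2, also had Aqp5 at the floor. These were the shallowest libraries by the estimated depths, and the part of depth was not tested.

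Among the intestinal-type genes, Olfm4 encodes olfactomedin 4, a secreted glycoprotein of intestinal stem cells that appears in intestinal metaplasia (chromosome 14, 80000302 to 80021930). With DMP-777 it had 5.98, 15.2 and 3.71 RPKM, and with L635 2.64, 2.08 and 1. All 3 L635 libraries lay below all 3 DMP-777 libraries, as they did for 8.75% of all genes tested. The log2 fold change was -1.52 ± 0.53 (SE) with a 95% interval from -2.66 to -0.38 and a limma unadjusted p of 0.0129. It did not pass adjustment over all genes (limma adjusted p = 0.419). With DMP-777 replicate 2 or 3 left out the value was -1.02 or -1.91. It was -1.27 when L635 replicate 3, the library at the floor, was dropped, and -1.15 once epithelial RNA was a covariate. Even the unadjusted limma p lay above 0.05 in 4 alternatives, at 0.0586 without DMP-777 replicate 2, 0.0622 without L635 replicate 3, 0.0716 with the epithelial covariate and 0.0597 without the filter on low values. The lowest values correspond to few reads, about 26 in L635 replicate 2 and 68 in L635 replicate 1. Since some neutrophils also carry Olfm4, their markers are given beside it. The summed level of 10 neutrophil markers was 146 to 328 RPKM in DMP-777 and 145 to 521 in L635. Retnlg was its largest part in each library, at 85.1, 279 and 257 RPKM with DMP-777 and 81.9, 471 and 79.5 with L635. Between 3 and 6 of the 10 markers lay above the floor. Mpo, Elane and Ly6g were at the floor in all 6 libraries, and Camp and Ngp were above it in 1 library each. The part of neutrophil RNA in the level of Olfm4 was not tested.

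The promoters of Olfm4 and Aqp5 are shown because these had the smallest p-values of the genes lower and higher in L635. They are taken from RefSeq on GRCm38.p6, from 250 bases before to 50 after the annotated start, in the direction of the gene. Entries were found for 6 of the 10 genes. The span given above for Aqp5 begins at 99590849, ahead of the RefSeq start used for its window. Part of the sequence before that RefSeq start thus lies inside the gene as listed. The result for Aqp5 therefore does not describe upstream sequence alone. Capitals mark matches to TTTATG, a CDX motif, searched on both strands together with ACAATG for SOX factors, AGATAA for GATA factors and TATAAA for the TATA box.
Olfm4, chr14:80000052-80000351, plus strand: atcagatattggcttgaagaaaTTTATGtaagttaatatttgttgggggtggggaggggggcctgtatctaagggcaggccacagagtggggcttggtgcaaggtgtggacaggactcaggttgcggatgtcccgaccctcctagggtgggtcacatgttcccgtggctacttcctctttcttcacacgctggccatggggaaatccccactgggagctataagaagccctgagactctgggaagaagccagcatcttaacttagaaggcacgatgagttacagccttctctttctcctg
Aqp5, chr15:99590778-99591077, plus strand: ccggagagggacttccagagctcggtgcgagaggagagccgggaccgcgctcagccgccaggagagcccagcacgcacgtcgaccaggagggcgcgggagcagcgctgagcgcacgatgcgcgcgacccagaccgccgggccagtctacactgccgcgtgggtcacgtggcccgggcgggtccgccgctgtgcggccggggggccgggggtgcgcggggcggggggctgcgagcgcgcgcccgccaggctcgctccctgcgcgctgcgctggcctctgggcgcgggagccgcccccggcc
The window of Olfm4 held 1 match, to the CDX motif at position -228 from the start, a motif found in 11.9% of 32851 promoter windows, and that of Aqp5 held none of the 4 motifs. Bases G and C made up 52.3% of the Olfm4 window and 79.7% of the Aqp5 window.

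Cftr encodes the chloride channel of intestinal and ductal epithelium (chromosome 6, 18170687 to 18322768). Its RPKM values were 1.44, 1 and 1 with DMP-777 and 1, 1.05 and 5.76 with L635. L635 replicate 3 alone was clearly above the floor, with about 935 reads at its estimated depth. The log2 fold change was 0.50 ± 0.46 (SE, limma adjusted p = 0.732) and turned to -0.080 without L635 replicate 3. The same library held the highest level of Aqp5 and of Sox9.

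Dmbt1 encodes a secreted scavenger receptor glycoprotein of mucosal surfaces (chromosome 7, 131032076 to 131121626). The 3 DMP-777 libraries held 143.5, 55.4 and 85.6 RPKM and the L635 libraries 114.0, 43.6 and 78.4. Both treatments covered a similar range, and the lowest library of each was its replicate 2. Group means were 94.8 ± 44.8 and 78.7 ± 35.2 RPKM (SD, n = 3 each), and the log2 fold change was -0.26 ± 0.41 (SE) at a limma adjusted p of 0.850. It turned to 0.085 without DMP-777 replicate 1, to 0.10 without L635 replicate 2 and to 0.25 after quantile normalization. Dmbt1 was the most abundant of these 5 intestinal-type genes in every library, at 113 to 252% of the level of Epcam.

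Vil1 encodes villin, the actin-bundling protein of the brush border (chromosome 1, 74409376 to 74435559). With DMP-777 it had 18.2, 10.9 and 2.70 RPKM, and with L635 8.56, 3.97 and 8.11. DMP-777 replicates held both the highest and the lowest value. Group means were 10.6 ± 7.74 and 6.88 ± 2.53 RPKM (SD, n = 3 each), and the log2 fold change was -0.32 ± 0.58 (SE) at a limma adjusted p of 0.874. It turned to 0.19 without DMP-777 replicate 1 and to 0.35 once epithelial RNA was a covariate.

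Tff3 encodes the trefoil peptide of intestinal goblet cells (chromosome 17, 31125306 to 31129646). It was at 9.73 RPKM in DMP-777 replicate 2, about 27 reads, and at the floor in the other 5 libraries. It was therefore not tested. The floor corresponds to 2.1 to 10.3 reads of this short gene, depending on the library.

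The other genes of both programs, from lists chosen with earlier results of these data known, had no common direction and 0 called genes. Of 15 further genes of SPEM and mucous neck cells, 13 were tested. In L635, 6 were higher and 7 lower, and their median log2 fold change was -0.05. At an unadjusted limma p below 0.05, 2 were lower and 0 higher, against 6.33% and 3.78% of all genes tested. Tff2, the spasmolytic polypeptide itself, was the most abundant, with RPKM values of 425, 402 and 366 with DMP-777 and 262, 346 and 195 with L635. All 3 L635 libraries lay below all 3 DMP-777 libraries for Tff2, as they did for 8.75% of all genes tested. The log2 fold change was -0.61 ± 0.37 (SE, limma adjusted p = 0.590). Gpx2, a glutathione peroxidase of gut epithelium, had -1.03 (limma adjusted p = 0.422), and Mal2, an apical transport protein, had -0.70 (limma adjusted p = 0.494). The neck mucin Muc6 had 0.09, Gkn3 of mucous neck cells had -0.39, and the cystine transporter Slc7a11, a partner of variant CD44, had 0.96 (limma adjusted p = 0.566).

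Of 35 further intestinal-type genes, 16 were tested. In L635, 7 were higher, Guca2b included, and 9 lower, and their median log2 fold change was -0.07. Another 19 were too low in most libraries. Of these, 10 were above the floor in DMP-777 libraries alone, 3 in L635 libraries alone, 2 in both and 4 in none. The same split over all genes left out of the test was not computed, so these counts cannot tell whether a treatment was preferred. DMP-777 replicate 1 had the most genes above the floor, 12955, against 11459 to 12264 in the other libraries. Cdx1, Cdh17, Reg4 and Slc26a3 were above the floor in that library alone. The 10 genes seen in DMP-777 alone included the intestinal homeobox genes Cdx1 and Cdx2. Cdx1 reached 5.17 RPKM in DMP-777 replicate 1 and Cdx2 reached 2.53 in the same library and 1.47 in DMP-777 replicate 2, and both lay at the floor elsewhere. They also included the goblet cell mucin gene Muc2, which had 1.13 RPKM in DMP-777 replicate 1, 1.93 in replicate 3 and the floor elsewhere. The 3 seen in L635 alone were Guca2a, the guanylin gene, at 1.74 RPKM in L635 replicate 1 and 3.38 in replicate 3, the stem cell gene Ascl2, at 5.26 and 1.13 in the same libraries, and the stem cell receptor gene Lgr5, at 1.15 in L635 replicate 3. Muc13 and Cdhr5, seen in both treatments, were highest in L635 replicate 1, at 2.72 and 7.45 RPKM.

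Guca2b encodes uroguanylin, a peptide hormone of the intestine. It lay at the floor throughout DMP-777 and at 11.2, 2.96 and 5.66 RPKM with L635. It entered the test through its 3 L635 libraries alone, so that the filter fixed its direction, and its values are given as a description. Of the other 15 tested genes, 1 was higher in L635 at an unadjusted limma p below 0.05 and 3 were lower, where the shares over all genes tested were 3.78% and 6.33%. The higher gene was Fabp1, the liver-type fatty acid binding protein of enterocytes, with RPKM values of 1, 6.67 and 1.21 with DMP-777 and 14.1, 18.2 and 7.43 with L635. Its log2 fold change was 2.06 ± 0.58 (SE) at a limma adjusted p of 0.406. For Fabp1, all 3 L635 libraries lay above all 3 DMP-777 libraries, as they did for 7.25% of all genes tested. In the other direction, Spink4, a protease inhibitor of goblet cells, had RPKM values of 63.0, 48.2 and 15.6 with DMP-777 and 20.9, 2.50 and 15.3 with L635 (log2 fold change -1.80 ± 0.64, SE, limma adjusted p = 0.422). The keratin gene Krt20 had 63.5, 20.8 and 5.37 RPKM with DMP-777 and 8.24, 2.37 and 6.76 with L635 (fitted log2 difference -1.74, limma adjusted p = 0.442). The galectin gene Lgals4 had -1.05 (limma adjusted p = 0.473). Of the most abundant genes, the mucin-folding disulfide isomerase Agr2 had -0.51. All L635 libraries lay below all DMP-777 libraries for Agr2, as for 8.75% of all genes tested. The membrane linker Ezr had -0.27 and the aminopeptidase Anpep -0.10. All 10 surface mucous cell markers also had a lower fitted level in L635, and the median of their log2 differences was -0.84. Whether other cells of the gate contributed to the levels of these intestinal-type genes was not tested.

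**Figure D5:**
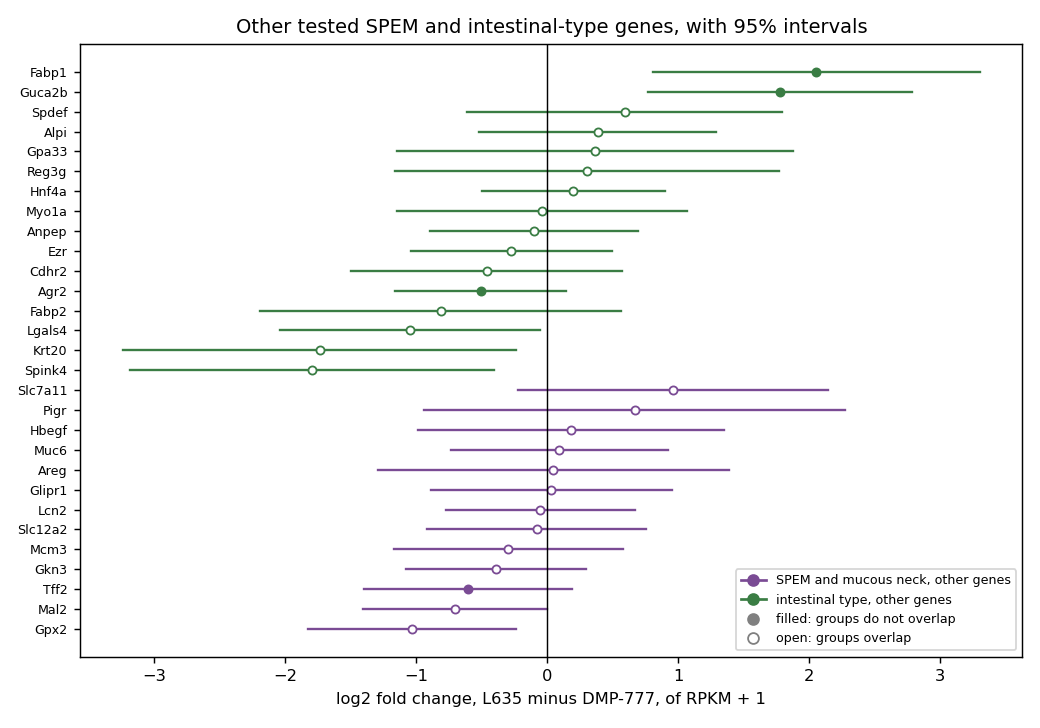
Fitted log2 fold change of RPKM + 1 in L635 relative to DMP-777 (x axis) for 13 further SPEM and mucous neck genes (purple) and 16 further intestinal-type genes (green), with 95% intervals as lines. Filled points mark genes whose groups do not overlap: Fabp1 and Guca2b on the higher side, the latter by the filter alone, Agr2 and Tff2 on the lower side. Over all genes tested, 7.25% do not overlap on the higher side and 8.75% on the lower side.

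Across the 6 libraries, the levels of the genes above the floor everywhere were compared with those of the other 12101 genes tested. By Pearson r of log2(RPKM + 1), the genes most like Cd44 were Sema7a and Mmp25 (r = 0.99 each), those most like Clu were Pef1 (0.99) and Pate4 (0.97), and those most like Sox9 were Ern2 and Ttc1 (0.99 each). Those most like Dmbt1 were Rpp25 (0.99) and Mettl7a1 (0.98), and those most like Vil1 were 1700021K19Rik (1.00) and Pik3r3 (0.99). These are descriptions over 6 libraries that differ in depth and in treatment. The named genes were picked for the highest r among 12101 genes, and with 6 libraries such a choice alone can give high values. The r to be expected from this choice was not computed, so no shared regulation is inferred.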

How the data were processed

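Total RNA of F4/80-positive corpus cells was amplified with a NuGEN Ovation kit and sequenced as single-end reads, per the labels' protocols. Per the submitters' processing notes, FastQC, TopHat 1.4, SAMtools and mm9 belong to the pipeline, with no roles stated. No source used here names the quantification tool. The deposited values are taken as RPKM made by the authors, with a floor of 1. The unit was recognised from the values: RPKM times exonic length (GENCODE M21) summed to 858656 to 973030 per library, and its low values fell on a step that gave the depth. The step was weak in every library and weakest in DMP-777 replicate 1. Its score was 0.063 there and 0.100 to 0.132 in the others, on a scale that ends at 1. Depths, their order and read numbers are therefore approximate. All per-sample columns were used. Of genes with a GENCODE identifier, 99.8% overlap the same gene on GRCm38, so coordinates are given on that build.

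Groups came from the sample titles. L635 was compared with DMP-777 by limma 3.58.1 in R 4.3.3 on log2(RPKM + 1), with a mean-variance trend, two-sided, adjusted over 12102 genes. Only the limma fit was tested on simulated data, without a floor and with changes placed in genes above the median level. That simulation does not cover genes near the floor, the depth estimate or the epithelial scaling. Named genes are the 10 members, the most abundant and smallest-p genes of both further lists, fixed reference genes and the closest profiles. Guca2b and other floor genes have fold changes that depend on the floor. The members and lists were chosen with earlier results of these data known. Alternatives varied the pseudocount, filter, normalization, weights, trend, epithelial level and libraries used.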

Additional observations from a re-analysis of the deposited data

How the results depend on the processing

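No gene of the table passed a limma adjusted p of 0.05 under any of the 16 alternatives, with 405 to 1581 genes at an unadjusted p below 0.05 against 1223. That number fell to 622 when DMP-777 replicate 2 was left out, to 652 when L635 replicate 3 was and to 808 when L635 replicate 2 was. With epithelial RNA as a covariate it was 405. The intestinal-type median was 0.19 with that covariate, and the cause was not tested. With 1 library left out it ran from -0.64 to 0.14, and that of the SPEM genes from 0.23 to 0.77. Olfm4, Sox9, Wfdc2 and Aqp5 kept their sign in all alternatives in which they were tested. The sign turned for Clu after quantile normalization (0.43) and centring on the epithelial level (0.049), and for Dmbt1 after quantile normalization (0.25). It also turned with the epithelial covariate for Cd44 (-0.015), Dmbt1 (0.036) and Vil1 (0.35). With 1 library left out, Clu ran from -0.26 to 0.054, Dmbt1 from -0.59 to 0.10, Vil1 from -0.998 to 0.19 and Cftr from -0.080 to 0.80. No paired analysis was possible because the groups share no sample numbers in the labels.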
